A study of Mus musculus with 6 samples.

Results

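The mitochondrial respiratory complexes II to V and cytochrome c were followed at the level of their nuclear messenger RNAs in mouse cortical neurons after knockdown of the microRNA miR-27b. All probes of the bead array were taken whose gene symbol starts with Sdha, Sdhb, Sdhc, Sdhd, Uqcr, Cox4, Cox5, Cox6, Cox7, Cox8 or Atp5, or is Cyc1 or Cycs. These were 74 of the 45281 probes, for 50 of the 21945 named genes. A probe counted as detected when its detection p was under 0.05 on at least 3 of the 6 arrays, which held for 60 of the 74 probes and for 44 of the 50 genes.

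One group of neurons (miR-27bKD, 3 arrays) was transduced with a lentivirus that lowers miR-27b, and the other (CTKD, 3 arrays) with a control lentivirus. All 6 samples were dissociated cortical neurons of C57BL/6J mice of the genotype Dicerflox/flox, transduced at a multiplicity of infection of 5 and harvested after 14 days in culture. The series describes 3 neuronal preparations, and arrays of the same replicate number were treated as pairs where differences within pairs are given. The main fit and its adjusted p-values did not use the pairs. A fit with replicate number as a block is given as an alternative. Neither the promoter of the viruses nor the age and sex of the animals is given in the sources used here, and the loss of miR-27b itself was not measured on this array.

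Complex II (succinate dehydrogenase) feeds electrons from the Krebs cycle into the inner mitochondrial membrane, complex III passes them to the small carrier cytochrome c, and complex IV hands them to oxygen. Complexes III and IV pump protons, and complex V, the ATP synthase, makes ATP from the proton gradient. The core subunits that the mitochondrial genome encodes are not among these genes, which are all nuclear. In neurons this chain supplies most of the ATP used for ion pumping and synaptic transmission.

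The 3p strand of miR-27b is shown first, because the seed defines the messages a microRNA can pair with. A 5p mature strand is also known, and the group name miR-27bKD does not say which strand was targeted. The 3p sequence comes from RefSeq (assembly GRCm38.p6, chr13:63300760-63300780, plus strand), with the seed, bases 2 to 8, in capitals.
mmu-miR-27b-3p: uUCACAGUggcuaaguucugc
No target site was searched, as transcript sequences were not used here.

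Promoter windows of 250 bases before to 50 bases after the start were available in the RefSeq table (GRCm38.p6) for 38 of the 50 genes. They are shown for the 5 genes past the threshold described below that had an entry, because members of this gene group are often described as sharing binding sites for nuclear respiratory factor 1 (NRF1), the ETS factor GABP and YY1. The promoter of Uqcrh lies at chr4:116075021-116075320, that of Atp5h at chr11:115419870-115420169, that of Atp5pb at chr3:105959214-105959513, that of Cycs at chr6:50566520-50566819 and that of Cox7a2l at chr17:83514284-83514583, all on the minus strand. Each is written from 5′ to 3′ on its gene's strand, with matches to the 3 motifs in capitals.
Uqcrh: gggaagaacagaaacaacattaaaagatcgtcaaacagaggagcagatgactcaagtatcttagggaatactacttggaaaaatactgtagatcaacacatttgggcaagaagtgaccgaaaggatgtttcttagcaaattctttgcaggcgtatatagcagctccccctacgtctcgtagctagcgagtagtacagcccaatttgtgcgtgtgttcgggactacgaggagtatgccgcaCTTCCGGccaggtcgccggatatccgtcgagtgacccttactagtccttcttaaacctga
Atp5h: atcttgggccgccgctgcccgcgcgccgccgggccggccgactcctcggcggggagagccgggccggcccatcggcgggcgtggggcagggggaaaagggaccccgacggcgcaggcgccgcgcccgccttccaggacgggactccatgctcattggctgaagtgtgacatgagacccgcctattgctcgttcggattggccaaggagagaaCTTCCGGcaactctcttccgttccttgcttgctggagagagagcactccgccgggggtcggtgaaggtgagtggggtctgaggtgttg
Atp5pb: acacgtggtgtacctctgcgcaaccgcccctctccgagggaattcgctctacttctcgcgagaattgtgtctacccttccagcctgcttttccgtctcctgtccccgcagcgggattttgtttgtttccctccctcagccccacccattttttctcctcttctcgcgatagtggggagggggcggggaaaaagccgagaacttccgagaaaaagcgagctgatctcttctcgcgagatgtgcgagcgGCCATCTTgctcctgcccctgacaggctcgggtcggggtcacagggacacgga
Cycs: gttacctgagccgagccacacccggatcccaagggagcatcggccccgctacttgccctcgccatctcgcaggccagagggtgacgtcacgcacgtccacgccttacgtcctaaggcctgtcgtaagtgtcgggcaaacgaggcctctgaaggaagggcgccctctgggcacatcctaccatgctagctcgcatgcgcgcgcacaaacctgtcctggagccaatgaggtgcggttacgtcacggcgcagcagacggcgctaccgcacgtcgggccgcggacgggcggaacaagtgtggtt
Cox7a2l: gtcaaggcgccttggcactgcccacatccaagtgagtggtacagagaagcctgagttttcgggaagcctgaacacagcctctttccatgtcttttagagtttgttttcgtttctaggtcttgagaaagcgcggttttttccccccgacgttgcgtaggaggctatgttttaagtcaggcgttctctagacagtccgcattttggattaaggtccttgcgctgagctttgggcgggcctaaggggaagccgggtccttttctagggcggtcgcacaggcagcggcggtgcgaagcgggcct
The capitals mark an ETS match in Uqcrh and in Atp5h and a YY1 match in Atp5pb, each on the opposite strand. The windows of Cycs and Cox7a2l held no exact match. Sites that differ from the searched letters by a base were not counted, so such sites can be present in any of these windows.

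The motifs were searched on both strands as the letters CCGGAAG (ETS) and AAGATGGC (YY1), together with the palindromic NRF1 core. None of them is contained in another. The ETS letters were found in 15 of the 38 genes (39.5%), against 2683 of the 27025 genes of the table (9.93%). The NRF1 core was found in 4 of the 38 (10.5%), against 1.07% of all genes, and these 4 were Atp5g2, Atp5k, Cox6a1 and Uqcrc1. The YY1 letters were found in 3 (7.9%), against 3.19% of all genes. The windows of the 38 genes were richer in G and C, with a median of 57.7% against 52.7% for all windows, and all windows with the ETS letters had a median of 60.7%. The median difference after miR-27b knockdown was −0.18 over the 15 detected genes that hold the ETS letters and −0.16 over the 20 that do not, and for the NRF1 core it was −0.26 over 4 genes with it and −0.15 over 31 without. For the YY1 letters it was −0.18 over 3 genes with them and −0.16 over 32 without. None of these splits was tested.

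Values are background-corrected, quantile-normalised probe intensities on the log2 scale, and differences are miR-27bKD minus CTKD. Probes detected per array numbered 17498 to 19163 in miR-27bKD and 18515 to 18680 in CTKD, and arrays correlated with each other at Spearman coefficients of 0.957 to 0.989 across detected probes. A large share of the array differed between the groups. Of all 18627 detected probes, 27.4% passed an adjusted p of 0.05 (limma with Benjamini-Hochberg adjustment over these probes), with 13.6% lower and 13.9% higher. With arrays or pairs left out, 3.56% to 11.5% were called lower and 2.96% to 11.96% higher. Markers of other cell types moved with the groups. Of the 13 inhibitory neuron markers 10 were detected and 8 of them were lower in miR-27bKD, and their summed level on the linear scale was 33118 to 38429 in miR-27bKD and 65860 to 72097 in CTKD, without overlap. Of the 10 astrocyte markers 9 were detected and 5 were lower, with a summed level of 17261 to 21539 in miR-27bKD and 23530 to 32040 in CTKD. Of the 8 pan-neuronal markers 6 were detected, 1 lower and 1 higher (summed level 69774 to 74644 in miR-27bKD and 68531 to 72870 in CTKD). Of the 10 excitatory markers 8 were detected, 2 lower and 1 higher (16741 to 17210 in miR-27bKD and 16123 to 16950 in CTKD). Camk2a was at −1.03 and Slc17a7 at −0.87, while Slc17a6 was at 0.79. Of 9 oligodendrocyte lineage markers 3 were detected, all below 0 though none passed in limma (1 had an unadjusted p under 0.05), with a summed level of 4703 to 7548 in miR-27bKD and 8145 to 10854 in CTKD, without overlap. Olig1 was the brightest of these 3, with means of 12.50 in miR-27bKD and 13.13 in CTKD. Among 9 vascular and fibroblast markers 4 were detected and none passed (2 had an unadjusted p under 0.05). Among 9 progenitor markers 5 were detected and 1 was lower, Hes5 at −1.08. Finally, 7 of 9 microglial markers, among them Cx3cr1, Csf1r and P2ry12, were not detected. The 2 detected lay on opposite sides of 0, with Cd68 lower at −1.01 (adjusted p = 0.00495) and Aif1 at 0.43 (adjusted p = 0.0853). The part of these shifts in the results below was not tested. In RNA from whole cultures, fewer cells of a type and less RNA per cell cannot be told apart.

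Most genes of complexes II to V lay slightly below control after miR-27b knockdown, and few of them passed the test singly. With each gene represented by its brightest detected probe, 41 of the 44 detected genes had a difference below 0, and the median difference was −0.17. Over all 11280 named genes with a detected probe, 49.2% were below 0 and the median was 0.0058. The test was passed by 8 genes that fell (14% of all genes were called lower) and by 1 gene that rose (15.4% of all genes were called higher), and 35 did not pass. In either direction 29.4% of all genes were called. The share of these genes called lower, 18.2%, was near the background of 14%, so nothing is read from the number of calls. The sign of the differences is given as a description of the list and was not tested.

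The median difference over the 44 genes was −0.23 in pair 1, −0.18 in pair 2 and −0.14 in pair 3, and 28 genes were below 0 in all 3 pairs (31.6% of all genes were). In 22 genes every miR-27bKD array lay below every CTKD array (23.5% of all genes did so), and in 1 gene every miR-27bKD array lay above (24.9% of all genes). With 3 arrays against 3 an exact permutation test of a single gene cannot give a two-sided p below 0.1. Among probes bright enough to have a mean log2 intensity of at least 12, 31 of the 32 member probes were below 0 with a median of −0.18, while the 1673 probes of that brightness had a median of 0.0029 and 49.7% below 0.

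The calls were sensitive to single arrays and to the variance model. The count of genes that fell was 8 with all arrays. It was 1 without miR-27bKD replicate 1, 1 without miR-27bKD replicate 2, 6 without miR-27bKD replicate 3, 1 without CTKD replicate 1, 1 without CTKD replicate 2 and 4 without CTKD replicate 3. It was 20 when the variance prior followed intensity (trend and robust eBayes). The one gene that rose, Cox7a2l, did not pass without replicate 1 or 2 of either group. Over 21 alternatives Sdhc passed in 19, Cycs in 15, Atp5pb and Cox7a2l in 12 each, Atp5a1 and Atp5h in 11 each, Uqcrb in 10, Cox4i1 in 9 and Uqcrh in 8. The number of genes below 0 stayed between 35 and 41 when arrays or pairs were left out. With replicate number as a block, 6 genes fell and 2 rose.

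**Figure D1:**
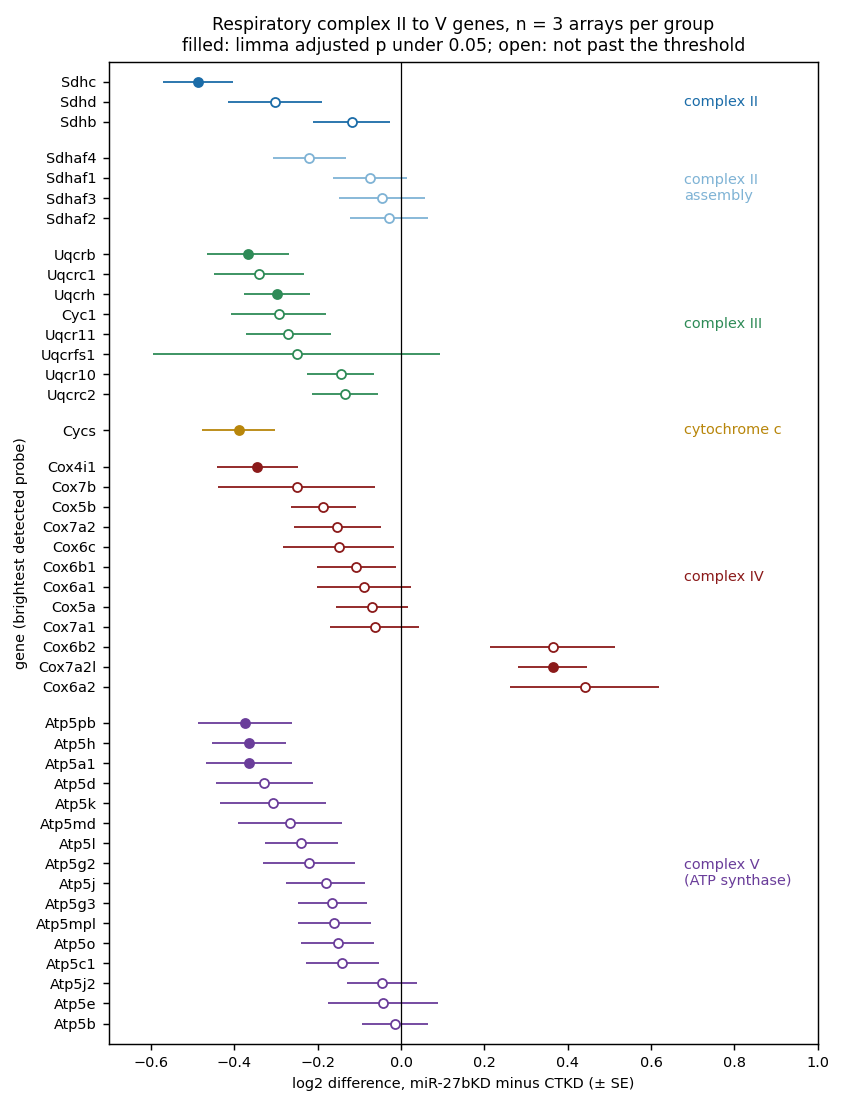
Log2 difference (miR-27bKD minus CTKD) of the 44 detected genes by complex, as points with the SE of the fit over 3 arrays per group, filled where the adjusted p was under 0.05. In all, 41 points lie left of 0, and the 3 to the right, Cox6b2, Cox7a2l and Cox6a2, belong to complex IV.

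Complex II held the gene with the largest fall among those past the threshold. Sdhc encodes one of the membrane anchor subunits that bind ubiquinone. Its level was 12.79, 12.69 and 12.83 in miR-27bKD, against 13.24, 13.23 and 13.31 in CTKD. The groups did not overlap, and the differences within the 3 pairs were −0.45, −0.54 and −0.47. Sdhc fell by 28.6%, a log2 difference of −0.49 (SE 0.084, adjusted p = 0.00767, limma). Before correction and normalisation the deposited intensities of this probe were 7250, 6879 and 6414 in miR-27bKD, against 10603, 10387 and 9784 in CTKD. Among the 21 alternatives tried, left-out arrays and pairs included, Sdhc passed in all but those without replicate 1 and without replicate 2 in both groups, where the highest adjusted p was 0.0868.

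The other anchor and the iron-sulfur subunit did not pass. Sdhd, the partner anchor, was at 9.79, 9.64 and 9.62 in miR-27bKD, against 10.17, 9.85 and 9.95 in CTKD, without overlap but with a difference of −0.30 (SE 0.113, adjusted p = 0.0905). Sdhb, the iron-sulfur subunit, was at 11.92, 11.84 and 12.05 in miR-27bKD, against 12.08, 12.09 and 11.99 in CTKD, and the groups overlapped (difference −0.12, SE 0.093, adjusted p = 0.386). The other probes of Sdhb gave −0.019 and −0.35, neither past the threshold. The probe at −0.35 was dim, with means of 5.62 in miR-27bKD and 5.97 in CTKD. It was detected on 1 miR-27bKD array and 3 CTKD arrays, so little can be read from it. Both probes of Sdha, the flavoprotein that oxidises succinate, were undetected. The anchor subunit Sdhc was therefore the one detected complex II subunit past the threshold in the main fit. Sdhd lay below 0 in each pair and passed in 1 of the 21 alternatives. The differences of Sdhc from Sdhb and from Sdhd were not tested.

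The 4 assembly factors of complex II, whose symbols also start with Sdha, had small differences and none passed in limma (1, Sdhaf4, had an unadjusted p under 0.05, and 1 passed with a variance prior that followed intensity). Sdhaf4, a chaperone of the flavoprotein, was lowest at −0.22 (adjusted p = 0.112). Sdhaf1, which helps insert iron-sulfur clusters, was at −0.074, Sdhaf3 at −0.045 and Sdhaf2 at −0.029. Sdhaf2, which helps attach the flavin, was at 10.09, 10.09 and 10.18 in miR-27bKD, against 10.28, 10.08 and 10.09 in CTKD, and the groups overlapped (SE 0.093, adjusted p = 0.846). The median of the 4 factors, −0.060, lay nearer 0 than the −0.30 of the 3 subunits, a difference that was not tested.

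In complex III all 8 detected genes were below 0, with a median of −0.28, and 2 of the 8 fell (14% of all genes were called lower). In 7 of the 8 genes the groups did not overlap, with miR-27bKD lower (23.5% of all genes), and the pair medians of −0.27, −0.27 and −0.30 were close to one another. Uqcrb, a small matrix-side subunit near the ubiquinone site, was at 7.91, 7.99 and 7.80 in miR-27bKD, against 8.37, 8.28 and 8.15 in CTKD. Uqcrb fell by 22.5%, a log2 difference of −0.37 (SE 0.099, limma adjusted p = 0.0348). Uqcrh, the hinge protein that links cytochrome c1 to cytochrome c, was at 14.31, 14.24 and 14.31 in miR-27bKD, against 14.58, 14.56 and 14.62 in CTKD. It fell by 18.6%, a log2 difference of −0.30 (SE 0.078, adjusted p = 0.0323), and with replicate number as a block the adjusted p was 0.0536.

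The core and catalytic subunits of complex III did not pass. Uqcrc1, a large core subunit, was at 12.34, 12.31 and 12.52 in miR-27bKD, against 12.75, 12.59 and 12.84 in CTKD, without overlap. Its difference of −0.34 (SE 0.107) had an adjusted p of 0.0573, and of 0.0430 with replicate number as a block. Cyc1, the haem protein cytochrome c1, was at 12.02, 11.96 and 12.17 in miR-27bKD, against 12.30, 12.22 and 12.52 in CTKD, also without overlap (difference −0.29, SE 0.113, adjusted p = 0.0990). The small subunit Uqcr11 was at −0.27, Uqcr10 at −0.14 and the second core subunit Uqcrc2 at −0.13, none of them past the threshold. The Rieske iron-sulfur protein Uqcrfs1 was dim and uneven, at 6.56, 5.56 and 6.90 in miR-27bKD, against 6.28, 6.65 and 6.83 in CTKD. Its difference of −0.25 (SE 0.344, adjusted p = 0.630) became positive when miR-27bKD replicate 2 was left out, with a range of −0.53 to 0.17 over the left-out arrays and pairs. Uqcrq was undetected.

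Cytochrome c itself, encoded by Cycs, was lower by all 3 of its probes. Besides carrying electrons from complex III to complex IV, the protein starts caspase activation once it leaves the mitochondrion. The brightest probe was at 12.92, 12.87 and 13.001 in miR-27bKD, against 13.35, 13.37 and 13.23 in CTKD, without overlap. Cycs fell by 23.7%, a log2 difference of −0.39 (SE 0.087, adjusted p = 0.0191). A dimmer probe also fell, at −0.38 (adjusted p = 0.0336, and 0.0640 with replicate number as a block), and the remaining one was at −0.52 (SE 0.184) with an adjusted p of 0.0819 (0.0329 with the block). That remaining probe was at 8.30, 7.66 and 8.19 in miR-27bKD, against 8.604, 8.39 and 8.71 in CTKD, and miR-27bKD replicate 2 stood below the other arrays.

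**Figure D2:**
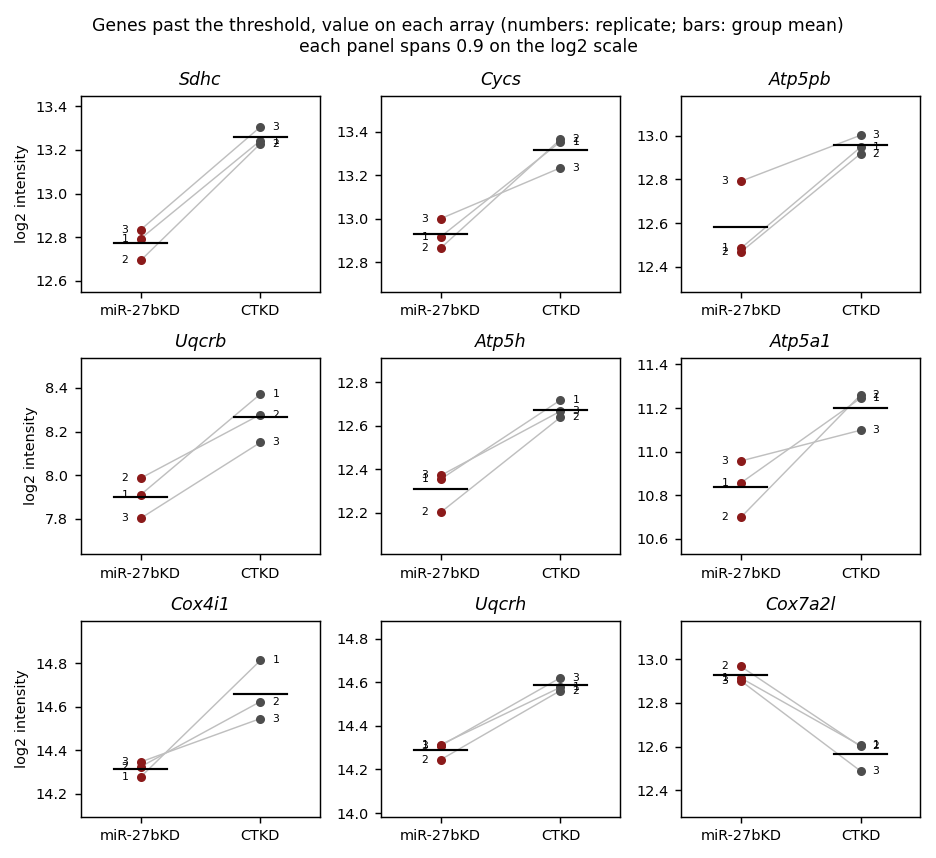
Log2 intensity on each array of the 9 genes past the threshold, with miR-27bKD left of CTKD, bars for group means, digits for replicate numbers and grey lines joining arrays of the same number. Every miR-27bKD array lies below every CTKD array in 8 genes and above in Cox7a2l.

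Complex IV, cytochrome c oxidase, behaved unevenly. Of its 12 detected genes in this set 9 were below 0 and 3 above, and the median difference was −0.099. Among them 1 fell and 1 rose (14% of all genes were called lower and 15.4% higher). The pair medians were −0.16, 0.073 and −0.090, so the sign of the median was not the same in all pairs. The groups did not overlap in 2 genes that were lower (23.5% of all genes) and in 1 that was higher (24.9% of all genes).

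Cox4i1, the broadly expressed isoform of the subunit at which ATP acts on the enzyme, was at 14.28, 14.32 and 14.35 in miR-27bKD, against 14.81, 14.62 and 14.55 in CTKD. It fell by 21.2%, a log2 difference of −0.34 (SE 0.098, adjusted p = 0.0416), and with replicate number as a block the adjusted p was 0.0690. Its lung-enriched isoform Cox4i2 was undetected.

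Cox7a2l rose. The protein, also called SCAF1, is related to the small subunit COX7A2 and joins complexes III and IV into a supercomplex, and C57BL/6 mice are known to carry a shortened form of it. The brightest probe was at 12.91, 12.97 and 12.90 in miR-27bKD, against 12.61, 12.60 and 12.49 in CTKD, without overlap. The log2 difference was 0.36 (SE 0.082, adjusted p = 0.0198), or 28.7% higher. A dimmer probe was at 8.29, 8.17 and 8.17 in miR-27bKD, against 7.99, 7.58 and 7.88 in CTKD, also without overlap (difference 0.39, SE 0.125, adjusted p = 0.0585). The paralogue Cox7a2, which sits in the complex itself, was at 10.60, 10.51 and 10.73 in miR-27bKD, against 10.88, 10.78 and 10.65 in CTKD (difference −0.15, SE 0.104, adjusted p = 0.320). The muscle isoform Cox7a1 was at 8.69, 8.89 and 8.77 in miR-27bKD, against 8.99, 8.72 and 8.83 in CTKD (difference −0.063, SE 0.107, adjusted p = 0.700), and both of these overlapped between groups.

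The other genes above 0, Cox6a2 and Cox6b2, encode tissue isoforms of complex IV subunits. Cox6a2, the heart and muscle isoform of subunit 6a, was at 10.63, 10.96 and 10.43 in miR-27bKD, against 10.14, 10.50 and 10.04 in CTKD. The groups overlapped by one array each, yet the difference within pairs was 0.48, 0.46 and 0.39. Its overall difference of 0.44 (SE 0.179) did not pass (adjusted p = 0.113), while with replicate number as a block the adjusted p was 0.0225. The ubiquitous isoform Cox6a1 averaged 14.17 ± 0.19 in miR-27bKD and 14.26 ± 0.020 in CTKD (SD, n = 3 each; difference −0.090, SE 0.113, limma adjusted p = 0.594).

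Cox6b2, the testis isoform of subunit 6b, was at 7.78, 7.75 and 7.90 in miR-27bKD, against 7.29, 7.28 and 7.77 in CTKD (difference 0.36, SE 0.149, adjusted p = 0.117). Only CTKD replicate 3 reached the range of the knockdown arrays. Its ubiquitous counterpart Cox6b1 was at 14.30, 14.44 and 14.45 in miR-27bKD, against 14.44, 14.47 and 14.62 in CTKD (difference −0.11, SE 0.095, adjusted p = 0.438). Cox7b, a small membrane subunit, was at 8.38, 8.49 and 8.54 in miR-27bKD, against 9.13, 8.38 and 8.65 in CTKD, with a difference of −0.25 (SE 0.188, adjusted p = 0.367). CTKD replicate 1 stood above the other arrays. With arrays or pairs left out the difference of Cox7b ran from −0.43 to 0.00083. Cox5b was at −0.19, Cox6c at −0.15 and Cox5a at −0.069, none past the threshold, and Cox7b2, Cox8b and Cox8c were undetected.

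Complex V had 16 genes, all of them detected and all below 0, with a median of −0.20 and pair medians of −0.23, −0.16 and −0.17. Of these 16, 3 fell (14% of all genes were called lower), and in 9 the groups did not overlap, with miR-27bKD lower (23.5% of all genes). The stalk that holds the catalytic head still had the largest median of the subunit groups, −0.27 over 4 genes, of which 2 fell. The catalytic head, F1, had a median of −0.14 over 5 genes with 1 that fell, the c ring −0.19 over 2 genes and the remaining membrane subunits −0.24 over 5 genes, with no call in either (2 of these 5 had an unadjusted p under 0.05, and neither ring gene did).

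Atp5pb, subunit b of the peripheral stalk, was at 12.48, 12.47 and 12.79 in miR-27bKD, against 12.95, 12.92 and 13.003 in CTKD. It fell by 22.9%, a log2 difference of −0.37 (SE 0.112), with an adjusted p of 0.0491, just inside the threshold. Its other detected probes were at −0.34 (adjusted p = 0.0632) and −0.21 (adjusted p = 0.269). Atp5h, subunit d of the stalk, was at 12.35, 12.20 and 12.37 in miR-27bKD, against 12.72, 12.64 and 12.67 in CTKD, and fell by 22.3% (difference −0.36, SE 0.088, adjusted p = 0.0243). The other stalk genes did not pass, with Atp5j (coupling factor 6) at −0.18 and Atp5o (OSCP, which ties the stalk to the head) at −0.15.

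In the catalytic head, Atp5a1 (subunit alpha) was at 10.86, 10.70 and 10.96 in miR-27bKD, against 11.25, 11.26 and 11.10 in CTKD. It fell by 22.3% (difference −0.36, SE 0.103, adjusted p = 0.0408), and with replicate number as a block the adjusted p was 0.0756. Its catalytic partner Atp5b (subunit beta) was at 15.04, 15.03 and 15.10 in miR-27bKD, against 15.06, 15.04 and 15.11 in CTKD. This was the smallest difference of the set, −0.014 (SE 0.079, adjusted p = 0.917), and the groups overlapped. Over the 21 alternatives the difference of Atp5b ran from −0.20 to 0.0071, and it passed in none. Atp5d (delta) was at −0.33 (adjusted p = 0.0812), Atp5c1 (gamma) at −0.14 and Atp5e (epsilon) at −0.044 (SE 0.132, adjusted p = 0.836). Atp5e was at 8.86, 9.21 and 9.29 in miR-27bKD, against 9.07, 9.23 and 9.19 in CTKD.

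Of the c ring genes, Atp5g2 was at 11.31, 11.58 and 11.58 in miR-27bKD, against 11.70, 11.62 and 11.81 in CTKD (difference −0.22, SE 0.111, adjusted p = 0.187). Atp5g3 was at 14.81, 14.79 and 14.93 in miR-27bKD, against 15.00, 14.98 and 15.04 in CTKD (difference −0.16, SE 0.083, adjusted p = 0.185). Neither overlapped between groups. In the membrane sector Atp5k was at −0.31, Atp5md at −0.27, Atp5l at −0.24 (adjusted p = 0.0860), Atp5mpl at −0.16 and Atp5j2 at −0.046. A dimmer probe of Atp5l, named here after its value was seen, was past the threshold at −0.31 (adjusted p = 0.0319). By probes, 10 of the 60 detected fell and 1 rose.

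**Figure D3:**
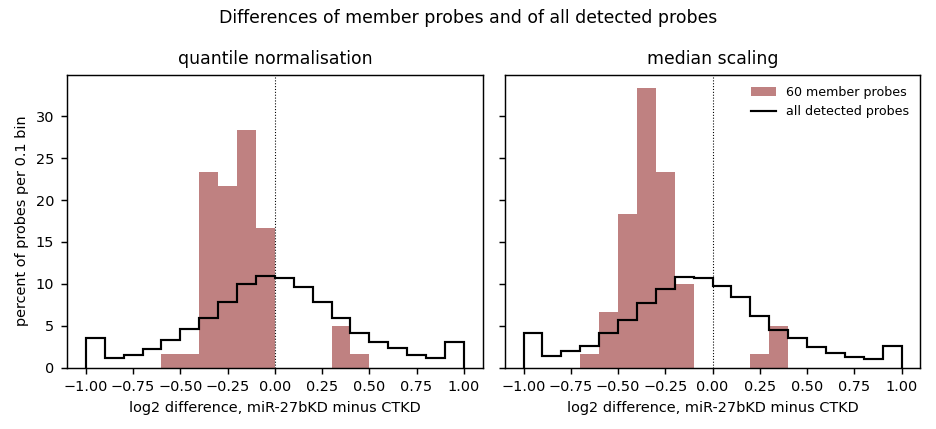
Share of probes per bin of 0.1 in log2 difference (miR-27bKD minus CTKD) for the 60 detected member probes (filled) and all detected probes (line), after quantile normalisation (left) and median scaling (right), with the end bins holding all values beyond 1 in size. Of the 60 member probes, 56 lie below 0 after quantile normalisation, where the median is −0.19 for members and −0.0074 for all.

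With scaling to the array median in place of quantile normalisation, the median difference was −0.32 over the member probes and −0.081 over all detected probes, so that the members lay −0.24 from the median of all probes. In that setting 3 genes fell (Sdhc, Cycs and Atp5pb), none rose, and Cox7a2l was at 0.21 (adjusted p = 0.479). The number of genes below 0 was again 41.

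The neighbouring steps of energy metabolism were read from lists of known genes. Complex I passes electrons from NADH to ubiquinone. In its list all 33 detected genes were below 0 and 8 fell (24.2%, against 14% of all genes), with a median of −0.21. Among the 8 was Ndufa4 at −0.27 (limma adjusted p = 0.0480, and 0.0735 with replicate number as a block), a gene whose product is now assigned to complex IV. Ndufb4, an accessory subunit, changed by −0.87 (adjusted p = 0.00918), Ndufa6 by −0.62 and Ndufb9 by −0.57. In the list of Krebs cycle and pyruvate dehydrogenase genes 8 of 21 detected fell (38.1%, against 14% of all genes), with a median of −0.34. The list also holds Pcx and regulators of the complex, and the kinase genes Pdk1 and Pdk3 were among the 8. With replicate number as a block Pdk1 did not pass (limma adjusted p = 0.0734). Idh2 passed with the block (0.0219) but not in the main fit (0.0527). Ogdh, the first subunit of 2-oxoglutarate dehydrogenase, changed by −1.56 (adjusted p = 0.000894), Dlat, a core subunit of pyruvate dehydrogenase, by −0.61, and its inhibitory kinase gene Pdk3 by −0.50.

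The genes that build or regulate the chain lay on both sides of 0. Of the 32 detected assembly factors of complexes II to V, 3 of them among the members themselves, 17 were below 0 and 15 above, 6 fell and 3 rose (14% of all genes were called lower and 15.4% higher), with a median of −0.021. Coa5, needed for complex IV assembly, changed by −1.04, Higd1a, which associates with complex IV, by −1.02, and Sco1, a copper carrier to complex IV, by 0.68 (adjusted p = 0.0126). Of 16 detected regulators of mitochondrial biogenesis 10 were below 0 and 6 above, with a median of −0.029. Among them 1 fell (6.25%, against 14% of all genes), Ppargc1b, the coactivator PGC-1beta, at −0.84 (adjusted p = 0.00438). The PGC-1alpha gene Ppargc1a was at −0.33 (adjusted p = 0.127), and the NRF1 gene Nrf1 at 0.043 (adjusted p = 0.789). In the list of ATP and ADP exchange and outer membrane genes 12 of the 14 detected were below 0, with a median of −0.17. Here 1 fell (7.1%, against 14% of all genes), the import pore gene Tomm40 at −0.67. The differences between these lists were not tested.

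**Figure D4:**
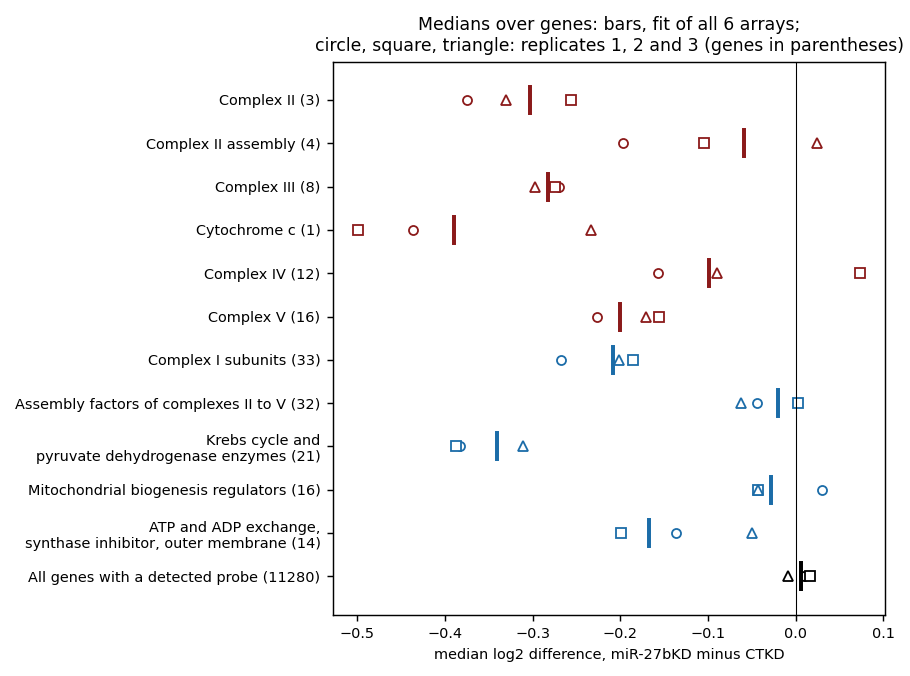
Median log2 difference (miR-27bKD minus CTKD) over the detected genes of each complex and list, with a bar for the fit of all 6 arrays, symbols for the pairs of replicates 1, 2 and 3, and the number of genes in parentheses. Complexes II, III and V and cytochrome c lie below 0 in every pair, and all genes lie at 0.0058. Complex IV (0.073) and the assembly factors of complexes II to V (0.0030) lie above 0 in pair 2. The complex II assembly factors do so in pair 3 (0.024) and the biogenesis regulators in pair 1 (0.030).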

How the data were processed

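Biotin-labelled cRNA from 500 ng of total RNA per sample was hybridised to an Illumina bead array, per the labels' protocols. The authors deposited raw probe intensity values, with no scaling of arrays to each other, per the file headers. Each intensity has a detection p-value beside it, per the file headers. The authors' other deposited intensity table, with equal distributions on all arrays, was used as an alternative. It lay within 0.00462 (log2) of the raw intensities after quantile normalisation. The scanner software is not given in the sources used here.

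Background was corrected with limma 3.58.1 (neqc, offset 16), arrays were quantile-normalised, and values were put on the log2 scale (R 4.3.3). The number of arrays limits the precision. The 18627 probes called present (detection p under 0.05) on 3 or more arrays entered 1 fit (lmFit and eBayes, all 6 arrays, adjusted over all of them). A gene was represented by its brightest detected probe. Symbols came from the platform annotation (35784 probes with 1 symbol, 9497 with none), of which 938 were updated through RefSeq (GRCm38.p6), and the older symbol Atp5f1 was read as Atp5pb. The fit was also run on simulated data with independent noise on each array, which does not measure how reliable the calls given here are.

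Replicate numbers were taken as pairs because deviations from the group mean correlated between arrays of one number (coefficients of 0.115, 0.215 and 0.227 across probes). These coefficients are small, and the labels give replicate numbers without stating that arrays of one number belong together. The pairs entered the pair differences, the replicate block and the fits without a pair, but not the main fit. Nothing in the labels says more of the animals, so p-values measure the spread between these samples. Full values are given for genes past the threshold, the genes of complex II and cytochromes c and c1, tissue isoforms, and the 3 largest and 3 smallest differences not past the threshold; up to 3 genes past the threshold are named per list. The genes, lists and tests were chosen with earlier results of these data known. Alternatives covered background, normalisation, filter, pairing, variance model, array weights, choice of probe and left-out arrays or pairs.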

Additional observations from a re-analysis of the deposited data

How the results depend on the processing

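The median difference of the member probes was below 0 under each alternative that was fitted on probes, from −0.32 to −0.15, and −0.21 to −0.17 with arrays or pairs left out. The counts of calls moved more. Probes that rose numbered 2 in place of 1 without background correction, with an offset of 50, from the second deposited table, with a detection p under 0.01 on all 6 arrays, with a replicate block and with the trended, robust variance prior. With median scaling 3 probes fell and 0 rose, the member median was −0.32 (−0.24 from all probes), 3 genes fell and 0 rose, 0 fell in complex III, 0 fell and 0 rose in complex IV and 1 fell in complex V, with medians of −0.40 (II), −0.42 (III), −0.56 (cytochrome c), −0.25 (IV) and −0.35 (V). With cyclic loess the complex III median was −0.25 and 0 genes of complex IV fell. With no filter, which tests more probes, 2 probes and 2 genes fell, 0 in complexes III, IV and V, and the complex II median was −0.21. With a replicate block 2 genes rose, both in complex IV, where 0 fell. The block changed the call of 5 member genes, all given above, and of no other member gene. With the trended, robust prior 27 probes and 20 genes fell and 2 genes rose, with 2 genes falling in complex II, 1 among its assembly factors, 5 in complex III, 2 in complex IV, where 2 rose, and 9 in complex V. With array weights the complex III median was −0.30. Leaving out arrays or pairs, probes that fell ranged from 0 to 8 and that rose from 0 to 1, and genes that fell from 0 to 6 and that rose from 0 to 1. By complex, genes that fell ranged from 0 to 1 in complex II, complex III, cytochrome c and complex IV and from 0 to 3 in complex V, and genes that rose from 0 to 1 in complex IV. These fits have fewer samples, and of all probes 3.56% to 11.5% were called lower in them. The medians ranged from −0.37 to −0.21 in complex II and −0.33 to −0.22 in complex III. The sign turned, in such fits alone, for Atp5e (−0.13 to 0.087), Sdhaf3 (−0.14 to 0.034), Uqcrfs1 (−0.53 to 0.17), Cox7a1 (−0.18 to 0.056), Sdhaf2 (−0.090 to 0.052), Atp5b (−0.036 to 0.0071), Cox6a1 (−0.20 to 0.0028) and Cox7b (−0.43 to 0.00083). The cause of the other shifts was not tested.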
